A study of Mus musculus with 30 samples.

Results

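The inversional D and V joins of the mouse antibody heavy-chain locus (Igh) are rearrangements in which JH4 was joined to the D or V region in the orientation opposite to the usual, deletional one. They were taken from HTGTS-V(D)J-seq libraries, in which genomic DNA is amplified outward from a bait primer at JH4 and each read gives the position and orientation of the sequence joined to it. Inversional joins were the junctions on chromosome 12 with Strand -1 between the first D segment and the far end of the V region, and deletional joins were those with Strand 1 in the same window. Of 2034085 joins in the window, 5706 (0.281%) were inversional. The 18 bone marrow libraries held 4707 of them among 1104302 joins (0.426%), and the 12 v-Abl libraries held 999 among 929783 joins (0.107%). The window leaves out the JH end of the locus, where Strand -1 junctions were far denser: in bone marrow, the 5000 bp just outside that edge held 32723 of them and the 5000 bp just inside held 84, against 3541 and 55 in v-Abl cells. Within 5000 bp of the far edge there were 0 on either side.

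For bone marrow, pro-B cells (B220+ IgM- CD43+) were sorted from mice of the 129SV strain that differed in IGCR1, a control region between the V and D segments that holds the CTCF-binding elements CBE1 and CBE2. Both elements were mutated (CBE12mut), CBE1 was mutated (CBE1mut) or inverted (CBE1inv), CBE2 was mutated (CBE2mut) or inverted (CBE2inv), or neither was changed (WT). The v-Abl libraries came from a pro-B line on the C57BL/6 background, transformed by v-Abl, that carried the Emu-Bcl2 transgene, lacked RAG1, kept a single Igh allele and had a degron on WAPL, a factor that releases cohesin from DNA. All v-Abl cells received RAG1 and RAG2 by retrovirus. A line without the CTCF-binding elements 3′ of the locus (3CBEdel) and its parent (WT) were each treated (DoxIAA) or left without these agents (untreat). Treated cells had STI-571 alone for 1 day and then 150 µM auxin (IAA), 2 µg/mL doxycycline and STI-571 for 3 days, and untreated cells had STI-571 for 4 days, at 3 µM throughout. Each of the 10 groups had 3 libraries. The labels used here do not say that these were separate mice or cultures, nor give an age, so p-values measure the spread between these libraries, which may be technical.

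In the usual reaction the RAG endonuclease cuts between a gene segment and its recombination signal sequence (RSS), which consists of a heptamer, a spacer and a nonamer. The coding ends are joined to each other and the signal ends to each other, and because V, D and JH segments of this locus lie in the same direction, the DNA between 2 coding ends is lost as a circle. An inverted product keeps that DNA in the chromosome. It can arise as a coding join, when a D segment uses the RSS on its other side, or as a hybrid join, in which the coding end of 1 segment is attached to the RSS of its partner.

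The sequences below show 3′ segment ends, at which most inversional joins lay when all segments were pooled. Each is the mm9 sequence of chromosome 12 on the minus strand, the direction of the gene, with the last coding bases in lower case, then the 3′ heptamer in capitals, the spacer in lower case and the nonamer in capitals. The D segments come first: Ighd1-1 is the last D of the main D group and the farthest from JH, Ighd2-3 and Ighd2-8 belong to the repeated Ighd2 family, and Ighd4-1 (DQ52) is the D nearest to JH. Ighd4-1 had 16 of its 55 inversional joins at this end in v-Abl cells and 29 of 57 in bone marrow. Of the V segments, Ighv5-2 (VH81X) is the functional V nearest to the D region, and Ighv2-2 and Ighv5-4 lie just beyond it.
Ighd1-1, chr12:114720353-114720403: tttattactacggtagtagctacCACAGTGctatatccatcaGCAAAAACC
Ighd2-3, chr12:114713583-114713627: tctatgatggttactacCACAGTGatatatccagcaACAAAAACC
Ighd2-8, chr12:114689034-114689078: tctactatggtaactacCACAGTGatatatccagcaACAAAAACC
Ighd4-1, chr12:114668711-114668749: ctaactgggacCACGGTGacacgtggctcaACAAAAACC
Ighv5-2, chr12:114816676-114816734: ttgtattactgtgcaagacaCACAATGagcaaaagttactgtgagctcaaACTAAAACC
Ighv2-2, chr12:114826439-114826497: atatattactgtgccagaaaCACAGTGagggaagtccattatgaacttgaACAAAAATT
Ighv5-4, chr12:114835618-114835676: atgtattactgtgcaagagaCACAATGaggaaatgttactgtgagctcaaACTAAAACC
Every annotated D segment of mm9 (21 of 21) and 93 of 115 V segments had a 3′ heptamer that begins with CAC, and 8 D and 73 V segments had CACAGTG.

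The sequence of an inversional join is shown by the commonest read of 3 sites. A read leaves JH4 against the direction of the gene and, after an inversional join, runs on through the segment in gene direction. In v-Abl cells JH4 was joined directly to the first base of the Ighd1-1 heptamer, without inserted bases. This sequence was found in 41 of 200 reads at that site that could be compared, and those 200 reads came from all 12 libraries. In CBE12mut bone marrow 9 bases (agccataac) lay between JH4 and the Ighv5-2 heptamer in 27 of 542 such reads. The last read joins JH4 to the 5′ coding end of Ighd4-1, with 2 inserted bases, and continues through the D into its own 3′ RSS. It was found in 5 of 6 such reads, all from 1 v-Abl library. Capitals again mark the heptamer and nonamer, and the first 20 bases are JH4.
JH4 to the Ighd1-1 RSS: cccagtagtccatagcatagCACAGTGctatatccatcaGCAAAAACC
JH4 to the Ighv5-2 RSS: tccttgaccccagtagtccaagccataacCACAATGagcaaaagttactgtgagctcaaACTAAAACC
JH4 to the 5′ end of Ighd4-1: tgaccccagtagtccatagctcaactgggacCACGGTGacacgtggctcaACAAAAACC

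Most inversional joins lay at the RSS side of a segment, whereas deletional joins lay at its coding end. In bone marrow, 2080 of 3495 inversional V joins (59.5%) fell on the first base of the 3′ RSS, against 4.04% of deletional V joins. For D joins of v-Abl cells the count was 430 of 795 (54.1%) against 0.351%. It was 44 of 126 (34.9%) against 4.52% for V joins of v-Abl cells, and 142 of 903 (15.7%) against 3.94% for D joins of bone marrow. All positions JH-ward of the last coding base together held 89.1% of the inversional V joins and 63.5% of the inversional D joins in bone marrow, and 81.0% of V and 85.5% of D joins in v-Abl cells. The deletional joins had 8.88%, 4.41%, 15.8% and 0.419% there, in the same order. The inversional D joins of bone marrow were thus the least concentrated on 1 base, with nearly as many (138) on the last coding base. They had further joins deeper in the signal, as the profile of junction positions shows. These shares are descriptions over pooled libraries. By library, the RSS side held 62.1% to 97.3% of inversional V joins in bone marrow and 45.1% to 95.7% of inversional D joins in v-Abl cells. The range was wider for inversional D joins of bone marrow, at 32.8% to 100%, and for the few inversional V joins of v-Abl cells, at 0% to 100%.

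**Figure D1:**
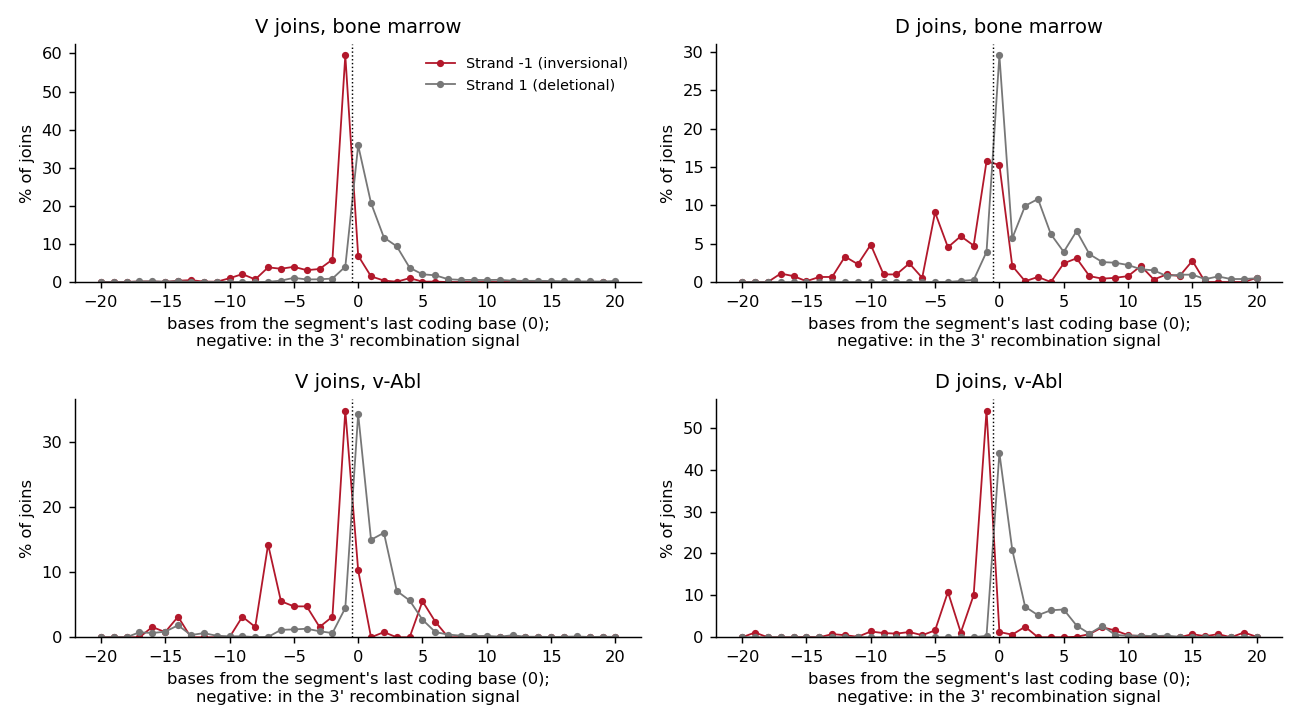
Position of inversional (Strand -1, red) and deletional (Strand 1, grey) joins relative to the last coding base of the segment (0, x axis, in bases), as percent of the joins of that kind (y axis), for V joins (left) and D joins (right) in bone marrow (top) and v-Abl cells (bottom), all libraries pooled; the dotted line parts the coding sequence from the 3′ recombination signal. The inversional peak lies at the first signal base in each panel (59.5% of V joins and 15.7% of D joins in bone marrow, 34.9% and 54.1% in v-Abl cells), and the deletional peak at the last coding base. For inversional D joins of bone marrow the last coding base held nearly as many (15.3%).

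The letters of the reads gave the same picture without any annotation of segments. The sequence after the junction began with CAC in 50.9% of inversional joins of bone marrow (32.2% to 65.5% by library) and in 49.4% of those of v-Abl cells (34.5% to 82.4%). Among deletional joins the shares were 0.777% and 0.103%. The complete CACAGTG opened 18.9% of inversional joins in bone marrow and 45.2% in v-Abl cells, against 0.000818% and 0% of deletional joins. Ighv5-2, whose heptamer is CACAATG, gave 2029 of the 4707 inversional joins of bone marrow.

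Joins within 10 bases of the 5′ coding end, where an inverted D segment would be joined, were the smaller class. They made up 87 of 903 inversional D joins in bone marrow (9.63%) and 78 of 795 in v-Abl cells (9.81%), and none of the inversional V joins. Of deletional D joins, 14.1% in bone marrow and 2.23% in v-Abl cells lay there, so the inversional share of bone marrow was not above the deletional one. Ighd4-1 is only 11 bases long, and its joins were assigned to the nearer end. Ighd4-1 stood apart among D segments of v-Abl cells: 37 of its 55 inversional joins (67.3%) lay at the 5′ end, in 8 libraries and as 11 distinct joins. They were uneven, with 20 of the 37 in WT DoxIAA replicate 2. Ighd1-1 had 334 of 585 inversional joins (57.1%) at the first RSS base and 30 at the 5′ end, and Ighd2-3 had 48 of 79, Ighd2-8 20 of 29 and Ighd2-7 all 10 of 10 at the first RSS base. Ighd3-2, the second D from JH, had 7 of 14 at the 5′ end. The 5′ RSS of Ighd4-1 (chr12:114668739-114668777, mm9, minus strand) is shown here with nonamer and heptamer in capitals ahead of the coding sequence.
Ighd4-1 5′ RSS: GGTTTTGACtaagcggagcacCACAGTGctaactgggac

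Inserted bases are those found in neither aligned partner of a join, and in a V join they can include the D of the DJH unit. Inversional V joins of bone marrow had a median of 14 inserted bases (deletional 17), and inversional D joins a median of 4 (deletional 3). In v-Abl cells the medians were 1 for inversional V joins (deletional 13) and 0 for inversional D joins (deletional -1, a 1-base overlap). D sequence was searched for only in V joins whose aligned partners did not overlap. A stretch of at least 8 bases of a D segment was found in 43.5% of 3379 such inversional joins of bone marrow, against 57.8% of deletional ones. Where the insert was at least 8 bases long, the shares were 62.3% and 63.0%. In v-Abl cells the search covered 94 of 126 inversional V joins, and the D-bearing share was 29.8% against 74.2% of deletional ones. It was 96.6% against 94.7% where the insert was long enough, over 29 such inversional joins. The inversional V joins of v-Abl cells thus included more joins with little or no insert between JH4 and the V. The number of bases lost from JH4 had a median of 6 in inversional and 5 in deletional D joins of bone marrow, 5 in both classes of V joins there, and 2 in every class of v-Abl cells.

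The same inversional join often recurred within a library. The 4707 inversional joins of bone marrow were 1498 distinct combinations of library, both junction positions and inserted bases, and the 999 of v-Abl cells were 360. Amplification copies and repeated events cannot be told apart here, and confidence intervals and count limits cover counting error only. Counting distinct joins only, the first RSS base held 59.5% of 1097 V joins and 17.1% of 316 D joins in bone marrow, and 33.3% of 54 V joins and 44.0% of 273 D joins in v-Abl cells. The position did not rest on a few recurrent joins.

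V joins were inversional more often than D joins of the same library in all but 4 libraries, CBE12mut replicates 1 and 2 and 3CBEdel DoxIAA replicates 1 and 3. In bone marrow the inversional share averaged 0.540% ± 0.0976 of V joins and 0.273% ± 0.168 of D joins (SD, n = 18 libraries), and it was higher for V in 16 of 18 libraries (difference 0.267 percentage points, sign-flip permutation p = 5e-05 with 100000 draws). In v-Abl cells the means were 0.492% and 0.130% (SD 0.289 and 0.0676, n = 12), with V higher in 10 of 12 libraries (difference 0.362 points, exact sign-flip p = 0.00195). V joins gave 3604 of the inversional joins of bone marrow (76.6%), of which 3156 lay in the nearest, 337 in the middle and 111 in the farthest of 3 parts of the V region, counted from D. D joins gave 1061 (22.5%) and the interval between D and V gave 42 (0.892%). In v-Abl cells, which seldom complete V joining, D joins gave 818 (81.9%), V joins 142 (14.2%) and the interval 39 (3.90%). Of the segments, 17 of 27 D and 103 of 150 V had at least 1 inversional join in bone marrow, as had 10 of 21 D and 30 of 117 V in v-Abl cells.

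By segment, the inversional share ranged widely at low depth. Among 162 bone marrow segments with at least 100 joins the median share was 0.25%, and 46 had no inversional join. Ighv5-2 had 0.621%, Ighv2-2 0.639% of its joins, Ighv5-4 0.689%, Ighd4-1 0.163% and Ighd1-1 0.107%. The highest share was 9.06% for Ighv1-75, 29 of 320 joins, which were 9 distinct joins in 6 libraries. The V segment at 114998634 of the bone marrow alignment target, whose coordinates differ from those of mm9, had 0 of 3924, which allows up to 0.0765%. The Ighv2 family had a median of 0.729% over 17 segments and the Ighv1 family 0.153% over 61, beside the 0.25% of all segments. Of these, 3 of 17 and 23 of 61 had no inversional join, which lowers a median at low depth. Pooled over the segments of a family, the shares were closer, at 0.694% for Ighv2 and 0.350% for Ighv1, beside 0.402% of all segments. The Ighv5 family had a median of 0.359% and a pooled share of 0.583%. Among 56 segments of v-Abl cells the median was 0.123% and 22 had none, with 0.0961% for Ighd1-1, 0.203% for Ighd4-1 and 0 of 5257 for Ighd2-5, which allows up to 0.0571%. The 5 highest v-Abl shares, 3.01% for Ighv6-3 to 5.11% for Ighv5-15, each came from 1 or 2 distinct joins.

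The first comparison asked whether changes of IGCR1 alter the orientation of joins in bone marrow pro-B cells. Inversional joins were commonest in CBE12mut cells, which had 0.579%, 0.634% and 0.708% of the joins of the window, against 0.303%, 0.243% and 0.334% in WT cells. All CBE12mut libraries lay above all WT libraries (difference of means 0.347 points, exact two-sided permutation p = 0.1, the smallest that 3 against 3 libraries allow). CBE1mut cells had 0.406%, 0.445% and 0.511% and also lay above WT without overlap (0.160 points, exact p = 0.1). CBE1inv cells averaged 0.368% ± 0.0678, CBE2mut cells 0.360% ± 0.0939 and CBE2inv cells 0.326% ± 0.0797 (SD, n = 3 each), and their libraries overlapped those of WT cells, at 0.294% ± 0.0463. Their differences from WT were 0.0741, 0.0667 and 0.0322 points (exact permutation p = 0.2, 0.4 and 0.5). CBE12mut also lay above CBE1mut (0.187 points) and above CBE2mut (0.280 points) without overlap, with an exact p of 0.1 each, while CBE1inv and CBE1mut overlapped (-0.0862 points, exact p = 0.3), as did CBE2inv and CBE2mut (-0.0345 points, exact p = 0.7). Over the 9 comparisons the smallest Benjamini-Hochberg value was 0.225. A test over all 6 genotypes, permuting libraries and comparing the variance of the group means in 100000 draws, gave a permutation p of 0.0012.

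Read names placed the CBE2mut and CBE2inv libraries in 1 sequencing run and all other bone marrow libraries in another, so in comparisons of these groups with WT or CBE12mut, run and genotype cannot be told apart. Depth followed the same split: a library held 11105 to 41433 junctions in CBE2mut, 15877 to 37480 in CBE2inv and 57970 to 98682 in the other 4 groups. A library had 48 to 676 inversional joins.

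The share of D joins that were inversional was highest in CBE12mut cells. It was 0.613%, 0.643% and 0.544% in CBE12mut, against 0.153%, 0.121% and 0.214% in WT. CBE1mut averaged 0.223% ± 0.0815, CBE1inv 0.239% ± 0.0531, CBE2mut 0.176% ± 0.0707 and CBE2inv 0.237% ± 0.144. CBE12mut lay above WT, CBE1mut and CBE2mut without overlap, by 0.437, 0.377 and 0.424 points (exact permutation p = 0.1 each), and the other 4 genotypes overlapped WT. Adjusted over all parts and comparisons of bone marrow, the smallest p was 0.9. The variance test over the 6 genotypes gave a permutation p of 0.00498. The share of V joins that were inversional was 0.644% ± 0.0934 in CBE12mut and 0.527% ± 0.0860 in WT, a difference within the spread of the libraries (exact permutation p = 0.3, variance test p = 0.177). In the part of the V region farthest from D, CBE12mut had 1 inversional of 2325 joins and WT had 39 of 9485 (means 0.0510% ± 0.0884 and 0.422% ± 0.191, no overlap, exact permutation p = 0.1). In the part nearest to D the means were 0.664% and 0.638%.

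**Figure D2:**
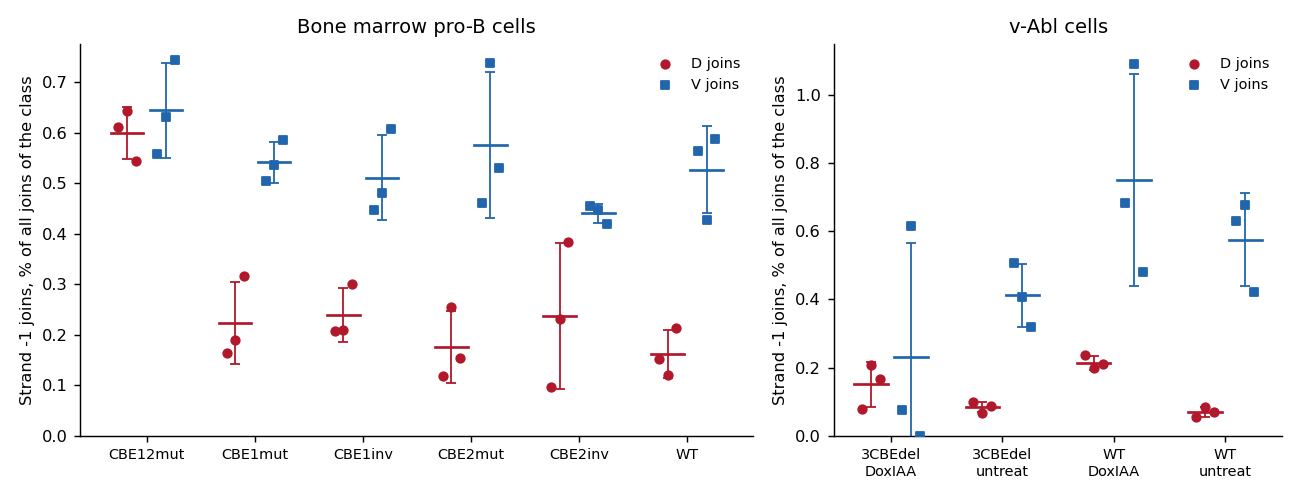
Inversional joins as percent of all D joins (red circles) and of all V joins (blue squares), by group, for bone marrow (left) and v-Abl cells (right); each point is 1 library, the bar is the mean and the error bar the SD of 3 libraries. The D share of the CBE12mut libraries (0.544% to 0.643%) lies above that of every other bone marrow group, and in v-Abl cells the D share of WT DoxIAA libraries lies above that of WT untreat libraries.

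The higher D share of CBE12mut cells went with a lower number of deletional D joins, not with a higher number of inversional ones. Per 100000 junctions of a library, CBE12mut had 76.6 ± 3.76 inversional D joins, CBE1mut 59.9 ± 21.7, CBE1inv 122 ± 24.3, CBE2mut 89.3 ± 42.7, CBE2inv 117 ± 76.1 and WT 105 ± 35.6 (SD, n = 3 each). The difference between CBE12mut and WT was -28.3 (exact permutation p = 0.3), and the variance test over the 6 genotypes gave a permutation p of 0.424. Deletional D joins were fewest in CBE12mut at 12782 ± 1661, then CBE1mut at 26845 ± 843, CBE2mut at 49604 ± 6200, CBE2inv at 50015 ± 7614 and CBE1inv at 51091 ± 1282, and were most frequent in WT at 63948 ± 3083, as the plot of D joins by orientation shows. The number of inversional V joins differed between the 6 genotypes (variance test, permutation p = 3e-05). Per 100000, CBE12mut had 546 ± 68.0 inversional V joins, CBE1mut 385 ± 30.9, CBE1inv 233 ± 45.2, CBE2mut 241 ± 47.5, CBE2inv 177 ± 8.89 and WT 176 ± 27.6. Deletional V joins numbered 84397, 70667, 45287, 42275, 39933 and 33309 in these groups, listed alike.

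**Figure D3:**
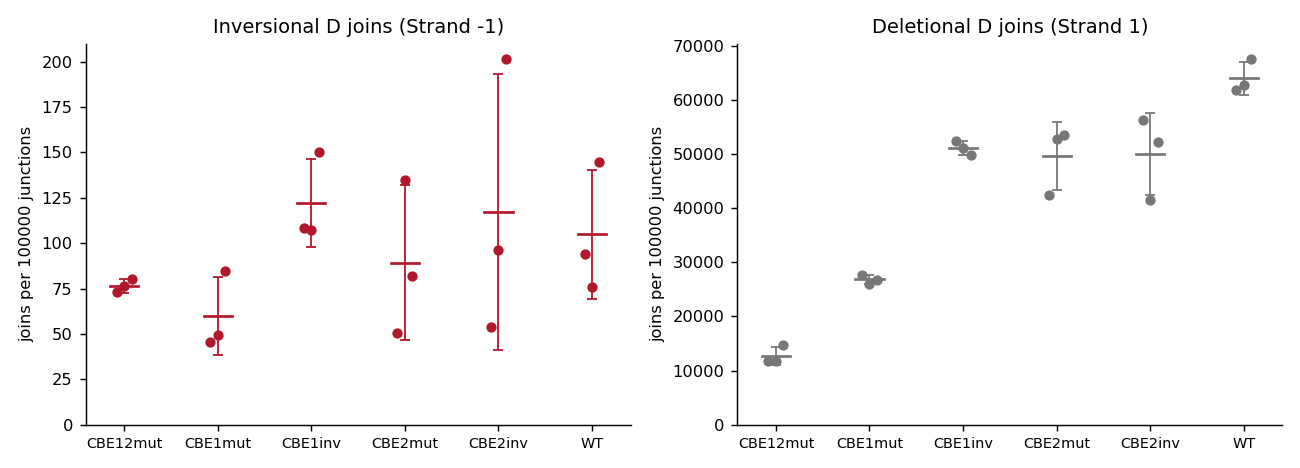
D joins per 100000 junctions of a library in bone marrow pro-B cells, inversional (left) and deletional (right), by IGCR1 genotype; each point is 1 library, the bar is the mean and the error bar the SD of 3 libraries, and the y axes differ in scale. Deletional D joins averaged 12782 in CBE12mut and 63948 in WT, while inversional D joins of CBE12mut libraries lay within the range of the WT libraries or just beside it.

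The makeup of the window enters its inversional share, since in WT libraries V joins were inversional more often than D joins. V joins were 86.3% ± 1.78 of the joins in CBE12mut, 72.3% ± 0.905 in CBE1mut and 34.2% ± 3.37 in WT. Pooled over libraries, 0.647% of CBE12mut joins were inversional. With WT's own inversional share within D, interval and V joins, the CBE12mut makeup would give 0.494%, and WT itself had 0.300%. For CBE1mut the pooled share was 0.455% and the share from its makeup 0.439%. For CBE1inv, CBE2mut and CBE2inv the pairs were 0.369% and 0.351%, 0.327% and 0.343%, and 0.317% and 0.338%.

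Ighv5-2 was the segment with the most inversional joins in bone marrow. CBE12mut libraries had 290, 292 and 472 inversional Ighv5-2 joins, CBE1mut libraries 153, 213 and 226, and CBE1inv libraries 93, 72 and 137, against 17, 1 and 18 in WT libraries. CBE2mut libraries had 11, 3 and 21, and CBE2inv libraries 0, 10 and 0. Per 100000 junctions CBE12mut had 430 ± 49.7, CBE1mut 260 ± 42.9, CBE1inv 108 ± 34.9, CBE2mut 37.5 ± 12.1, CBE2inv 8.89 ± 15.4 and WT 14.4 ± 11. CBE12mut, CBE1mut, CBE1inv and CBE2mut libraries all lay above those of WT, and CBE2inv overlapped WT. As distinct joins CBE12mut had 255, CBE1mut 169, CBE1inv 83, CBE2mut 15, CBE2inv 5 and WT 15.

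Among the 174 segment and orientation combinations with at least 10 junctions in at least 3 bone marrow libraries, 9 were inversional. They belonged to Ighv5-1, Ighv5-2, Ighv2-2, Ighv5-4, Ighd1-1, Ighd2-6 and 3 D segments named by position. Inversional Ighv5-1 joins passed this filter only through CBE12mut and had to differ, so its calls are not used as results. Fitted together with limma voom, 4 of the 9, Ighv5-1 among them, differed between CBE12mut and WT at an adjusted p under 0.05, and 87.9% of all 174 did. Of the 9, 3 were higher, again with Ighv5-1, and 1 was lower in CBE12mut, where 5.17% of all 174 were higher and 82.8% lower. Inversional Ighv5-2 joins were higher by a log2 change of 5.18 (SE 0.59, limma adjusted p = 5.68e-10), beside 4.15 for its deletional joins. Inversional Ighv2-2 joins, at 17, 40 and 52 in CBE12mut and 12, 10 and 13 in WT libraries, were higher by 1.40 (SE 0.57, limma adjusted p = 0.0211), beside 1.79 for deletional ones. Ighv5-1, an annotated pseudogene and the V nearest to D, had 23, 11 and 15 inversional joins in CBE12mut and none in WT libraries, at least 15.7-fold higher per 100000 against a floor of 3 counts over the WT group, a description with no test. Inversional Ighd1-1 joins, at 5, 0 and 0 in CBE12mut and 13, 5 and 4 in WT libraries, were lower by a log2 change of -2.71 (SE 1.21, limma adjusted p = 0.0356), with overlap of the libraries. The Ighv2-2 call ended without WT replicate 1 or 3 or CBE12mut replicate 2 or 3 (limma adjusted p = 0.0508 to 0.0798), and the Ighd1-1 call without CBE12mut replicate 2 or 3 (0.104 and 0.18) and with median-of-ratios scaling (0.725).

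The same fit named Ighv5-2 alone in the comparisons of single-element changes of CBE1. Its inversional joins were higher in CBE1mut than in WT by a log2 change of 4.43 (limma adjusted p = 4.85e-08; 58% of all combinations were called, 2.87% as higher), and higher in CBE1inv than in WT by 3.13 (limma adjusted p = 0.000166; 9.77% called, 3.45% as higher). The deletional Ighv5-2 joins changed by 3.70 and 2.29. Inversional Ighv5-2 joins were lower in CBE1inv than in CBE1mut by -1.30 (limma adjusted p = 0.000826; 42% called, 3.45% as lower). CBE12mut exceeded CBE1mut in inversional joins of Ighv5-2 by 0.74 (limma adjusted p = 0.0155; 49.4% called, 2.87% as higher). The Ighv5-2 call of that comparison ended without CBE12mut replicate 3 or CBE1mut replicate 1 (limma adjusted p = 0.0691 and 0.0886). CBE12mut differed from CBE2mut in inversional Ighv5-2 (3.37) and Ighd1-1 joins (-3.59), where 63.8% of combinations were called, 3.45% as higher and 60.3% as lower; the Ighd1-1 call ended without CBE12mut replicate 3 (limma adjusted p = 0.0849). CBE2mut and CBE2inv each had 0 of 9 inversional features called against WT by limma voom, 1 at an unadjusted p under 0.05, and 0 by limma with trend, where 11.5% and 4.6% of all combinations were called. CBE2inv against CBE2mut had 0 of 9 called by voom, 1 at an unadjusted p under 0.05 and 1 by limma with trend (3.45% of all combinations called by voom).

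The share of Ighv5-2 joins that were inversional overlapped between WT and each of these mutants. It was 0.598%, 0.657% and 0.792% in CBE12mut, 0.479%, 0.576% and 0.623% in CBE1mut, and 0.657%, 0.413% and 0.801% in CBE1inv, against 0.606%, 0.0439% and 0.604% in WT libraries. The log2 change of the ratio of inversional to deletional Ighv5-2 joins in CBE12mut against WT was 1.21 (SE 0.97, limma adjusted p = 0.424).

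**Figure D4:**
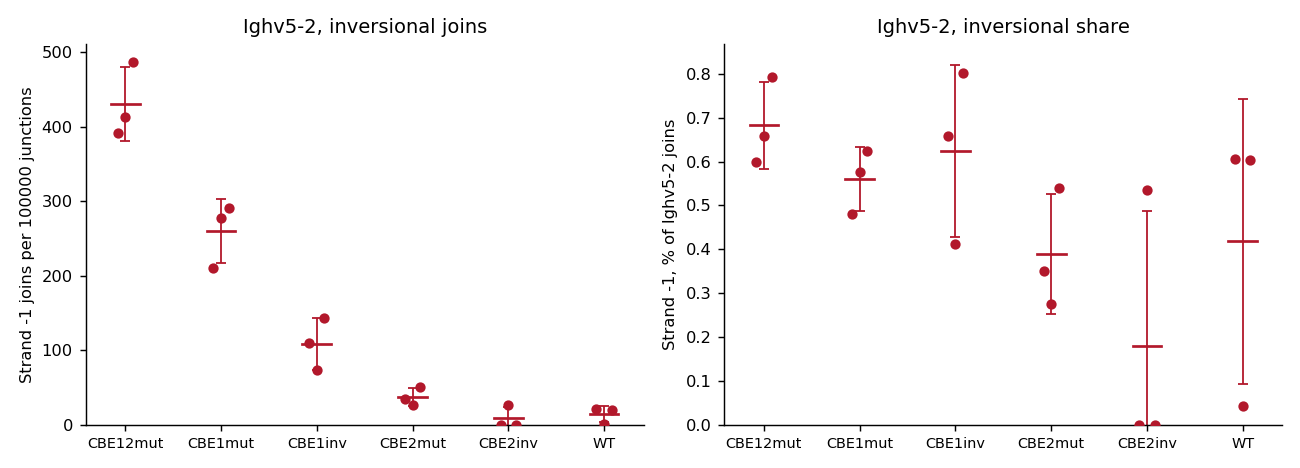
Inversional Ighv5-2 joins per 100000 junctions (left) and as percent of all Ighv5-2 joins of the library (right), by IGCR1 genotype; each point is 1 bone marrow library, the bar is the mean and the error bar the SD of 3 libraries. The number averaged 430 in CBE12mut and 14.4 in WT, whereas the percent overlapped between the groups; 2 CBE2inv libraries had no inversional Ighv5-2 join.

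A fit of the ratio of inversional to deletional joins aimed to test orientation apart from use. It covered 53 bone marrow segments (12 D and 41 V) with at least 20 joins in every library. Between CBE12mut and WT 4 of 53 segments (7.55%) were called, all of them D segments and all more often inversional in CBE12mut. Ighd2-4 had 0.387%, 1.02% and 1.58% inversional joins in CBE12mut, against 0%, 0.0811% and 0.0530% in WT (log2 change of the ratio 4.38, SE 1.04, limma adjusted p = 0.0189). These shares rested on 2, 6 and 13 inversional joins in CBE12mut and 0, 2 and 2 in WT, or 5 and 2 distinct joins. The D segments at 114690286 and 114705399 of the bone marrow target, both closest in sequence to Ighd2-5, had 18 and 14 inversional joins in CBE12mut and 4 and 10 in WT (log2 4.01 and 3.24, limma adjusted p = 0.0374 each), and the D segment at 114719352 had 30 and 10 (4.56, limma adjusted p = 0.048, with overlap). The D segment at 114719352 had 5 distinct inversional joins in CBE12mut and 3 in WT. The D segment at 114690286 had 5 and 2 distinct joins, and that at 114705399 had 6 in each group. The latter thus had no excess in the number of distinct inversional joins, while its deletional joins were fewer in CBE12mut (log2 change -2.88). Over the 12 D segments the median log2 change was 2.45 and 10 were positive, and over the 41 V segments it was 1.08 with 35 positive. Of the 41, 9 had no inversional join in either group, where the added 0.5 and the number of deletional joins set the sign. In single libraries without an inversional join of a D segment, such as WT replicate 1 for Ighd2-4, they also set the value. Deletional D joins were fewest in CBE12mut, so the ratio is not fully apart from use there. Without WT replicate 1, 2 or 3 the count of called segments was 0, 1 and 2, and without CBE12mut replicate 1, 2 or 3 it was 1, 1 and 0.

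CBE1mut and CBE1inv each had 1 segment called against WT (1.89%): Ighv13-2, with 13 inversional joins in CBE1mut and 0 in WT, and the V segment at 115501873 of the target, with 0 in CBE1inv and 16 in WT. Both calls ended with a replicate block (limma adjusted p = 0.0514 and 0.0541), the first without any 1 of 5 of the 6 libraries, all but CBE1mut replicate 2 (limma adjusted p = 0.0773 to 0.221), and the second likewise without all but WT replicate 1 (0.0566 to 0.44). In each of the other 6 comparisons between the bone marrow groups 0 of 53 segments were called (0% each), with 2 to 9 at an unadjusted p under 0.05.

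The second comparison asked whether treatment with auxin and doxycycline, which acts on the WAPL degron, changes the orientation of joins in v-Abl cells, and whether the 3′ CTCF-binding elements matter for it. The labels do not give WAPL protein levels. Inversional joins were 0.0777%, 0.233% and 0.153% of the window in 3CBEdel DoxIAA, against 0.108%, 0.0779% and 0.0920% in 3CBEdel untreat. They were 0.278%, 0.282% and 0.235% in WT DoxIAA, against 0.0694%, 0.1% and 0.0858% in WT untreat. In 3CBEdel cells the libraries overlapped (0.0623 points, exact permutation p = 0.4), and in WT cells the treated libraries lay above the untreated ones without overlap (0.180 points, exact permutation p = 0.1; 0.2 is the smallest adjusted value over the 4 comparisons). With treatment permuted within genotype, the exact test gave a difference of 0.121 points and p = 0.02, where 0.005 is the smallest it can give. The treatment difference was smaller in 3CBEdel than in WT cells by -0.117 points (exact permutation p = 0.05 with genotype permuted within treatment). That p was 0.065 to 0.13 under 5 alternative settings, and 0.055 to 0.15 without any 1 of 9 of the 12 libraries, all but replicate 2 of WT untreat, 3CBEdel DoxIAA and 3CBEdel untreat; the difference then ranged from -0.157 to -0.0788 points.

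Among treated cells 3CBEdel lay below WT without overlap (-0.110 points, exact permutation p = 0.1), and untreated 3CBEdel and WT cells overlapped (0.00739 points, exact permutation p = 0.6). Read names placed WT replicate 1 in 1 run, WT replicates 2 and 3 with 3CBEdel replicates 1 and 2 in another, and 3CBEdel replicate 3 in a further one. Treated and untreated libraries of the same number shared a run. Within runs the treatment difference was 0.0629 and 0.0611 points in 3CBEdel cells and 0.209 and 0.165 points in WT cells, and in the run that held both genotypes treated 3CBEdel lay -0.102 points from treated WT and untreated 3CBEdel -0.000235 points from untreated WT. Treated libraries were shallower, with 13180 to 31275 junctions against 82947 to 175957 in untreated ones, and a library had 17 to 150 inversional joins.

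The D joins carried most of the treatment difference. Their inversional share was 0.151% ± 0.0664 in 3CBEdel DoxIAA and 0.0842% ± 0.0159 in 3CBEdel untreat (exact permutation p = 0.3), and 0.214% ± 0.0199 in WT DoxIAA and 0.0698% ± 0.0156 in WT untreat (no overlap, exact permutation p = 0.1; SD, n = 3 each). The smallest p adjusted over all parts and pairs of v-Abl groups was 0.4. The exact test within genotype gave 0.106 points and p = 0.015. Unlike in CBE12mut bone marrow, the mean number of inversional D joins was higher too. Per 100000 junctions it was 139 ± 61.0 in 3CBEdel DoxIAA and 81.9 ± 15.5 in 3CBEdel untreat. These libraries overlapped (72.4, 192 and 152 against 96.0, 65.4 and 84.4). It was 191 ± 17.7 in WT DoxIAA and 67.7 ± 15.0 in WT untreat, without overlap. Distinct inversional joins of the window, whose number per junction falls with depth, stood at 54.6 ± 12.1 per 100000 junctions in 3CBEdel DoxIAA and 33.3 ± 6.47 in 3CBEdel untreat, and at 92.4 ± 19.1 in WT DoxIAA and 32.1 ± 6.18 in WT untreat. Inversional joins recurred 2.89 times per distinct join in WT DoxIAA and 2.68 times in WT untreat, whereas deletional joins recurred 10.7 and 26.6 times. The treatment difference was also taken with joins of either orientation that shared junction, JH4 end and insert length counted once. For the whole window, with treatment permuted within genotype, it turned to -0.210 points (exact permutation p = 0.06). That of D joins turned negative too.

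Makeup also moved with treatment, as V joins were 6.75% of joins in 3CBEdel DoxIAA and 1.82% in 3CBEdel untreat, and 9.50% in WT DoxIAA and 1.89% in WT untreat. With the inversional shares of untreated cells of the same genotype within D, interval and V joins, the makeup of 3CBEdel DoxIAA would give 0.107%, beside its pooled 0.153%, and that of WT DoxIAA 0.118%, beside 0.264%. V joins themselves were inversional in 9 of 3651 cases in 3CBEdel DoxIAA, 26 of 6141 in 3CBEdel untreat, 59 of 7697 in WT DoxIAA and 48 of 8616 in WT untreat. With genotype permuted within treatment, the V share was lower in 3CBEdel than in WT cells by -0.342 points (exact permutation p = 0.04). This p was 0.055 to 0.105 without any 1 of 8 of the 12 libraries: WT DoxIAA replicates 1 and 2, WT untreat replicates 1 and 2, 3CBEdel DoxIAA replicates 1 and 3, and 3CBEdel untreat replicates 2 and 3. In the interval between D and V, treated libraries had 0 inversional of 103 joins in 3CBEdel and 0 of 157 in WT, which allows up to 2.91% and 1.91%, against 10 of 1384 in 3CBEdel untreat and 29 of 2597 in WT untreat. The exact test within genotype gave p = 0.005, but the untreated shares, 0.723% and 1.12%, lie below those limits, so a difference was not detectable at this depth.

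Ighd1-1 and Ighd2-3 were the D segments with the most inversional joins in v-Abl cells. With every read counted, each was more often inversional after treatment of WT cells. Ighd1-1 had 21, 17 and 35 inversional joins in WT DoxIAA libraries, 0.316%, 0.176% and 0.399% of its joins, against 61, 91 and 102 in WT untreat libraries, 0.0615%, 0.0905% and 0.0829%. The groups did not overlap, and the log2 change of the ratio was 1.89 (SE 0.57, limma adjusted p = 0.0206). For Ighd2-3 the WT DoxIAA libraries had 6, 8 and 6 inversional joins, against 2, 2 and 12 in WT untreat libraries, or 0.0961% ± 0.0156 against 0.0202% ± 0.0189 (log2 2.50, SE 0.64, limma adjusted p = 0.0160). As distinct inversional joins, Ighd1-1 had 22 in WT DoxIAA and 80 in the deeper WT untreat libraries, and Ighd2-3 had 9 and 8. Deletional joins of the window recurred 10.7 times per distinct join in WT DoxIAA and 26.6 times in WT untreat, which enters these shares. The Ighd1-1 call ended without WT untreat replicate 1 or 3 or WT DoxIAA replicate 1 or 3 (limma adjusted p = 0.0534 to 0.0781), and the Ighd2-3 call without WT untreat replicate 1 (0.0762). In 3CBEdel cells Ighd1-1 had 6, 33 and 12 inversional joins in DoxIAA libraries (0.252% ± 0.170), against 98, 59 and 50 in untreat libraries (0.0869% ± 0.0266), with overlap and a log2 change of 1.34 (limma adjusted p = 0.0884). The difference between the genotypes' treatment changes was called for 0 of 12 segments by limma, with 1 at an unadjusted p under 0.05.

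**Figure D5:**
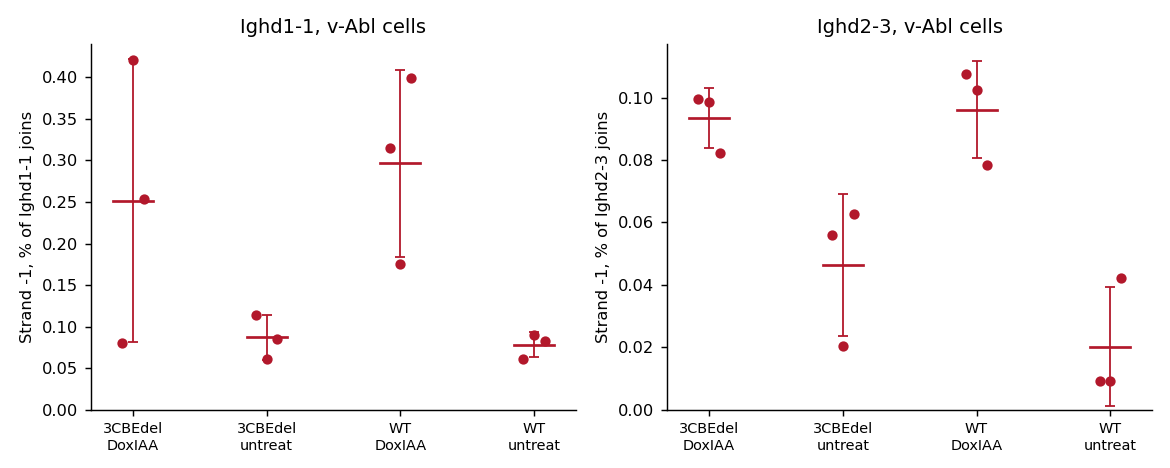
Inversional joins as percent of all joins of Ighd1-1 (left) and Ighd2-3 (right) in v-Abl cells, by group; each point is 1 library, the bar is the mean and the error bar the SD of 3 libraries. WT DoxIAA libraries lie above WT untreat libraries for both segments, while for Ighd1-1 the 3CBEdel DoxIAA libraries spread from 0.0800% to 0.421% and overlap 3CBEdel untreat libraries.

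Of the 12 segments tested in v-Abl cells, 6 (50%) were called between WT DoxIAA and WT untreat, all D segments with a higher ratio. Ighd2-4 was among them, with 8, 0 and 6 inversional joins in treated and 0, 0 and 1 in untreated libraries (log2 3.45, limma adjusted p = 0.024, with overlap); without any library but WT DoxIAA replicate 2 its adjusted p was 0.0521 to 0.111. Without WT untreat replicate 1 or 3 or WT DoxIAA replicate 3 the count of 6 was 1, 2 and 3. The other 3, Ighd2-5, Ighd2-6 and Ighd6-1, had 1 inversional join or none in all 6 libraries together. Their values were thus set by the 0.5 added to each count and the number of deletional joins, which depends on depth. The same holds for the 4 of 12 segments (33.3%) called between 3CBEdel DoxIAA and 3CBEdel untreat, among which no segment had more than 3 inversional joins in a group. Ighd4-1 was inversional in 2, 22 and 4 joins of WT DoxIAA libraries and in 3, 10 and 0 of WT untreat libraries, with no call (limma adjusted p = 0.463). Counted per 100000 junctions, inversional Ighd1-1 joins, the only inversional feature deep enough in v-Abl cells, were not called in any of the 4 comparisons by limma voom, with 0 at an unadjusted p under 0.05 and 0 by limma with trend. Their log2 change in WT DoxIAA against WT untreat was 0.64 (limma adjusted p = 0.236), beside -1.22 for deletional Ighd1-1 joins. Of all 74 combinations tested, 81.1% were called in that comparison, 77% between 3CBEdel DoxIAA and 3CBEdel untreat, 1.35% between the treated and 2.7% between the untreated genotypes.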

How the data were processed

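Per the file headers, each deposited line stands for a single read and its junction between bait and prey, so the deposited values used are positions, orientations and read sequences, and no abundance value; the authors' unit is thus other than a count, and the levels were made here by tabulating lines. Per the submitters' processing notes, the authors aligned reads with Bowtie2 to mm9, and per the labels the bone marrow reads to a target in which mm9 is combined with another Igh sequence. The Bowtie2 version is not given in the sources used here.

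Junctions were assigned to a segment when they lay in it or within 100 bp of it. The mm9 annotation named the v-Abl segments, and BLAST+ 2.17.0 named bone marrow clusters by sequence; 81 of these are given by position. mm9 sequences were read from the reference, and junction sequences from the reads. Group means were compared by exact permutation tests over 20 relabelings (Python 3.11, SciPy 1.17.1), and segments with limma 3.58.1 in R 4.3.3, with Benjamini-Hochberg adjustment over all features of a comparison; library size was all junctions of a library. The ratio test added 0.5 to each count. The fits were tested on simulated data. Named were the fixed segments Ighd4-1, Ighd3-2, Ighd1-1, the Ighd2 family, Ighv5-1, Ighv5-2, Ighv2-2 and Ighv5-4, those with the most inversional joins, the highest and lowest shares, and called segments. The members, lists, tests and this rule were chosen with earlier results of these data known. Alternatives were normalization, filters, added counts, read and coordinate collapsing, single segments or libraries left out, and a replicate block. Libraries of the same number deviated together, with all 3 correlations over 0.1, in 1 of 13 comparisons, CBE1inv against WT (0.116 to 0.202), which is a hint from the data and not from the design.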

Additional observations from a re-analysis of the deposited data

Results flagged for a closer look

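The difference between the treatment effects of the v-Abl genotypes met the rule for a closer look because 2 groups under the same contrast differed in the test of that difference. The share of inversional joins in the window had a smaller difference between DoxIAA and untreat in 3CBEdel than in WT cells, by -0.117 percentage points (exact permutation p = 0.05, genotype permuted within treatment). As given above, that p exceeded 0.05 under several alternative settings and without most single libraries. Of the pairs of treated and untreated libraries with the same number, 2 of 3 in 3CBEdel and 3 of 3 in WT cells had the higher share after treatment. Within the sequencing run that held both genotypes, treated 3CBEdel lay -0.102 points from treated WT. A cause was not tested.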

How the results depend on the processing

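Of the values of summary results under the alternatives, 447 kept their direction and side of the threshold, 69 moved, 14 weakened and 11 reversed. Of the single-segment and part results, 276 were unchanged in this sense, 72 weakened, 2 strengthened and 3 reversed. Share comparisons of 2 groups cannot reach an exact permutation p of 0.05 (smallest 0.1, or 0.2 without a library), so only their direction could change. Their replicate-block values were unchanged by construction. The counts of unchanged values thus do not measure robustness for these comparisons. Counting each read sequence once, untreated 3CBEdel against WT turned to -0.00437 points, and the difference between treatment effects was -0.119 (exact permutation p = 0.115). Counting joins with the same junction, orientation and JH4 end once, which by construction removes far more deletional than inversional v-Abl joins, gave -0.0534 for CBE2inv against WT, -0.00552 for WT treatment, -0.415 for 3CBEdel treatment, -0.0214 for untreated 3CBEdel against WT, -0.210 for treatment within genotype (-0.131 for D joins) and -0.409 for the difference between treatment effects. That difference was -0.107 with joins within 100 bp of a segment or without Ighd4-1, and -0.106 with aligned stretches of at least 50 bases. As inversional joins per 100000, the D difference of CBE12mut was -28.3 from WT and -12.7 from CBE2mut. Leaving out Ighv5-2, an alternative chosen after seeing the data, changed no call or direction of the window. Leaving out 1 library, the ranges were -0.157 to -0.0788 for the difference between treatment effects, -0.0706 to 0.0198 for CBE2inv against CBE2mut, -0.00389 to 0.0750 for CBE2inv against WT and -0.000463 to 0.0149 for untreated 3CBEdel against WT; the cause was not tested.

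Counts of called inversional features, whose counts in brackets for CBE12mut include Ighv5-1, changed as follows. CBE12mut against WT (4) gave 2 with limma trend, 7 with features of at least 1 junction, 2 with each read once and 1 to 4 without a library. CBE1mut against WT (1) gave 2 with median-of-ratios scaling, 5 with at least 1 junction, 2 with each read once and 1 to 2 without a library. With at least 1 junction CBE1inv against WT gave 4 and CBE2inv against WT 2. CBE1inv against CBE1mut (1) gave 2 with median-of-ratios scaling, 0 with trend, 4 with at least 1 junction, 2 with each read once and 1 to 3 without a library. CBE12mut against CBE1mut (2) gave 0 with trend, 1 with each read once and 0 to 2 without a library. CBE12mut against CBE2mut (3) gave 16 with at least 1 junction, 1 with each read once and 1 to 3 without a library. CBE2inv against CBE2mut (0) gave 1 with trend. WT treatment (0) gave 1 with median-of-ratios scaling and 5 with at least 1 junction, and 3CBEdel treatment 2 with at least 1 junction. For the orientation ratio, CBE12mut against WT (4) gave 10 with 1 added to both counts, 12 with at least 20 joins summed per group and 0 to 2 without a library. CBE2mut against WT gave 16 with the summed filter, WT treatment 11 and 3CBEdel treatment 12. CBE2inv against WT and CBE1inv against CBE1mut gave 1 with 1 added. Without a library the ratio counts were 0 to 1 for CBE1mut, CBE1inv and CBE2inv against WT, for CBE1inv and CBE12mut against CBE1mut and for treated 3CBEdel against WT, 1 to 6 for WT treatment and 0 to 2 for untreated 3CBEdel against WT. Within 20 bases of the 3′ end, in place of 10, lay 83.2% of D and 98.8% of V joins in bone marrow and 89.8% and 100% in v-Abl cells.

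With a replicate block, which pairs libraries of the same number, the ratio counts were 1 for CBE12mut, 0 for CBE1mut and 0 for CBE1inv against WT, and the paired share differences equal the unpaired ones, with an exact sign-flip p of at least 0.25. Depth limits most segments to a few inversional joins.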

Other observations

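Joins near no annotated segment were a small class. In bone marrow 309 inversional joins (6.56%) at 69 positions, and in v-Abl cells 78 (7.81%) at 28 positions, lay more than 100 bp from any segment, and 26 and 12 of them began with CAC. In bone marrow all 28 inversional joins of the D segment at 114720916 of the target lay at its 5′ end. In v-Abl cells the joins to the 5′ end of a D segment numbered 5 in 3CBEdel DoxIAA, 22 in 3CBEdel untreat, 33 in WT DoxIAA and 18 in WT untreat.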
